A study of Drosophila melanogaster with 6 samples.

Results

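Complex I, or NADH:ubiquinone oxidoreductase, is the largest enzyme of the mitochondrial respiratory chain. The genes described here encode its subunits in the nuclear genome of *Drosophila melanogaster*, and 34 such genes were looked up by name in the authors' deposited table, which lists 14862 genes. All 34 were found, each under an older symbol such as ND75 or CG9140, and they are called here by their current ND- names. A likelihood ratio above 0, and with it a test, was listed for 33 of the 34, against 13080 of all 14862 genes.

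The series asks how suppression of insulin signalling alters gene expression in the oocyte. RNA came from pools of 200 stage 14 oocytes, the last stage of oogenesis, taken from flies reared on standard food with yeast paste. The control group expressed GFP (genotype GFP control, 3 samples) and the other group expressed InR-DN (genotype InR-DN, 3 samples), a form of the insulin receptor that the submitters use to suppress its signalling. The labels name neither the driver line of the transgenes nor the age of the mothers. Nor do they tell if those 3 pools per group are of separate crosses, and p-values therefore measure only the spread between these samples, which may be technical.

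Only a table of the comparison between both groups was analysed here, not the values of single samples. The depth of each sample is therefore unknown and no spread between replicates could be computed. For each gene the authors' deposited table holds a likelihood ratio with its p-value before and after adjustment, a log2 fold change and the average abundance in log2 CPM (reads scaled to library size). Which group is the numerator is not written in it, so fold changes are reported by sign, positive or negative, and not assigned to a group. An SE was implied for each gene from the size of its log2 fold change and its likelihood ratio, and gave a 95% interval by the normal approximation. The name of the table speaks of embryos while the labels speak of oocytes, and the libraries that enter the average are not stated.

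Complex I passes electrons from NADH to ubiquinone and couples this to the export of protons from the mitochondrial matrix. It has an L shape. A peripheral arm in the matrix holds the flavin and the iron-sulphur clusters, and a membrane arm holds the proton channels, whose central subunits are encoded by mitochondrial DNA. The core subunits do the chemistry and the accessory subunits surround them. Mature fly oocytes hold many mitochondria that pass to the embryo. Reduced insulin signalling late in fly oogenesis is known to accompany a fall of mitochondrial respiration, a state called respiratory quiescence. The functions given below are those established for the mammalian counterparts, which the RefSeq gene table lists for all 34 genes.

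No complex I subunit was called. In the likelihood ratio test of the authors, 0 of 33 tested members had an adjusted p under 0.05, and 0 of 33 had an unadjusted p under 0.05. Among all tested genes, 5.1% were called and 11.4% had an unadjusted p under 0.05. Calls were rarer at the averages of these genes. Among the 4417 other tested genes within the members' range of averages, 0.951% were called and 2.85% had an unadjusted p under 0.05. A count of 0 among 33 is near this background. The libraries behind the averages are not stated, so this range may not match abundance in the compared samples. The early zygotic genes sna and slp2, for example, had averages of 5.70 and 5.86 but a log2 fold change and a likelihood ratio of exactly 0. The averages therefore appear to include libraries outside the compared groups. The median log2 fold change of the members was -0.07, and all 33 lay between -0.32 and 0.11 in the authors' deposited table. The median of all tested genes was 0.03. In pooled samples such as these, fewer cells of a type and less RNA per cell cannot be told apart.

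**Figure D1:**
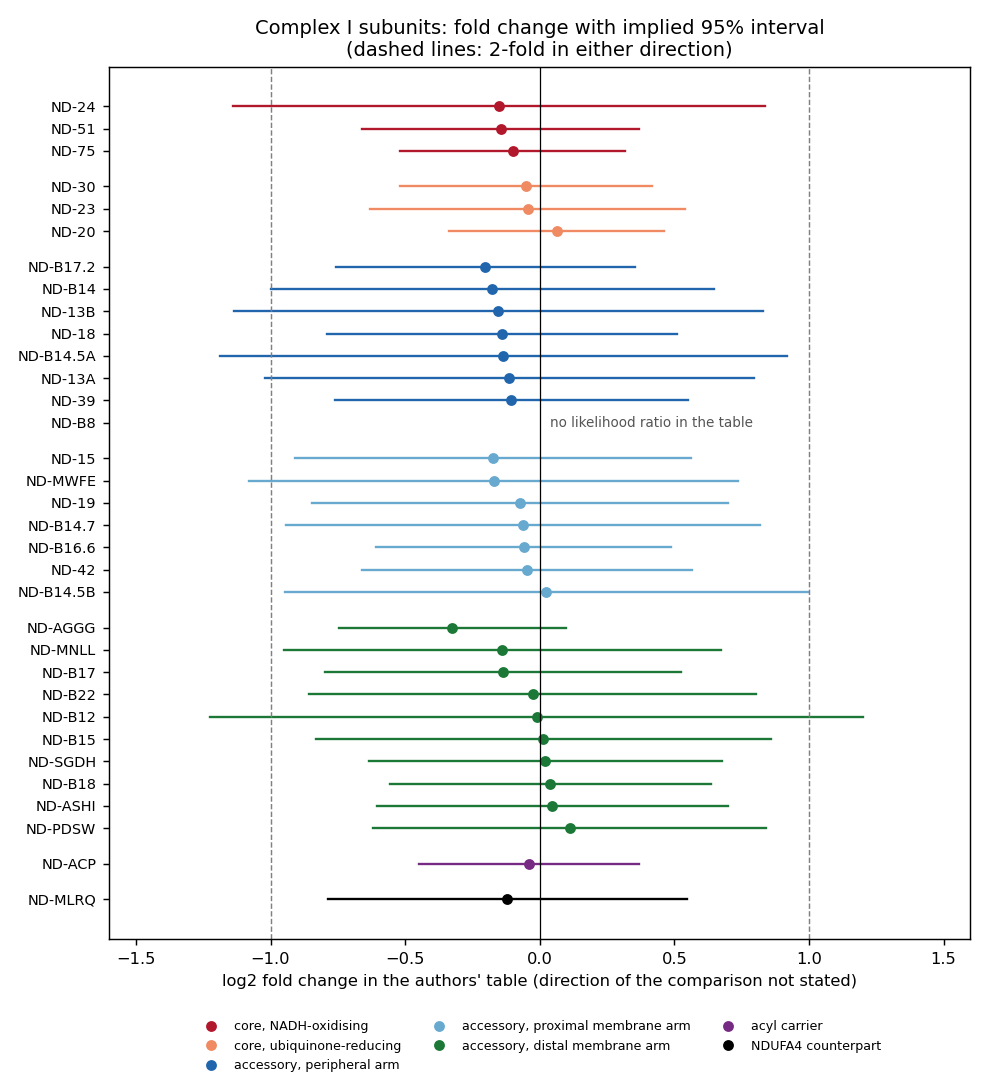
Log2 fold change of the complex I subunits described here, per the authors' deposited table (points), with the implied 95% interval (lines), grouped by the place of the subunit in the enzyme. All 32 intervals drawn include 0, and 26 of them lie within the dashed lines at a 2-fold change in either direction.

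The NADH-oxidising end of the peripheral arm is formed by 3 core subunits, and all had small negative values. In the authors' deposited table ND-51, which binds NADH and the flavin FMN, had a value of -0.15 on the log2 scale (implied SE 0.26, unadjusted p = 0.58). ND-24, which holds an iron-sulphur cluster beside the flavin, was at -0.15 with a wider implied SE of 0.50 in the authors' deposited table. ND-75, the large subunit that carries several iron-sulphur clusters onwards, was at -0.10 with an implied SE of 0.21 in the authors' deposited table. None of these differed from 0 beyond its interval. The interval of ND-75 ran from -0.52 to 0.32, while that of ND-24 ran from -1.14 to 0.84 and leaves room for a 2-fold change on the negative side.

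The ubiquinone-reducing module of the peripheral arm holds further core subunits, of which 3 are described here, all close to 0. ND-30, the counterpart of NDUFS3 at the base of the arm, had a value of -0.05 in the authors' deposited table. ND-20, which carries the last iron-sulphur cluster before ubiquinone, was at 0.06 with an implied SE of 0.20, the narrowest among the members, in the authors' deposited table. ND-23, which holds a pair of iron-sulphur clusters, was at -0.05 with an implied SE of 0.30 in the authors' deposited table. All 3 intervals lay within a 2-fold change, and those of ND-30 and ND-20 lay within a 1.5-fold change.

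Accessory subunits of the peripheral arm had negative values in 7 of 7 tested members, with a median of -0.14. ND-B17.2, the counterpart of NDUFA12, was at -0.20 with an implied SE of 0.28 and an unadjusted p of 0.48 in the authors' deposited table. ND-B14, the counterpart of NDUFA6, was at -0.18 with an implied SE of 0.42 in the authors' deposited table. ND-18, ND-13A, ND-13B, ND-39 and ND-B14.5A, counterparts of NDUFS4, NDUFS6, NDUFA5, NDUFA9 and NDUFA7, lay between -0.15 and -0.11 in the authors' deposited table. NDUFS4 and NDUFS6 are needed in mammals to complete the NADH-oxidising module, and NDUFA9 holds a nucleotide at the junction of both arms. The implied SE of these 5 ran from 0.33 to 0.54, each larger than the value itself.

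The eighth of these subunits, ND-B8, was the 1 member without a test. ND-B8, the counterpart of NDUFA2, appears in the authors' deposited table as CG15434, where its log2 fold change and likelihood ratio are both 0 and its average log2 CPM is -2.24. All other members had an average log2 CPM of 5.03 or more. ND-B8 was above the lowest average of the table, -3.80, and was 1 of 288 genes with a likelihood ratio of 0 and an average log2 CPM at least as high. Its spliced transcript is the shortest of the 34, at 460 nt in the Ensembl annotation, and 15.4% of its bases overlap exons of the gene Gs1l on the opposite strand. Gs1l itself had an average log2 CPM of 4.57 in the authors' deposited table. Neither trait was particular to ND-B8. ND-B15 and ND-B12, at 477 and 525 nt, had average log2 CPM of 5.65 and 6.74. ND-B22 and ND-MWFE, with 28.8% and 40.5% of bases overlapped on either strand, had 5.71 and 5.94. The part of length, overlap or gene model in the low average of ND-B8 was not tested.

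In the membrane arm, the 7 accessory subunits near the junction of both arms lay between -0.17 and 0.03, 6 of them negative. ND-15, the counterpart of NDUFS5 on the outer face of the membrane, was at -0.17 with an implied SE of 0.38 in the authors' deposited table. ND-MWFE, a small subunit whose counterpart NDUFA1 is needed in mammals to assemble the enzyme, was at -0.17 with an implied SE of 0.46 in the authors' deposited table. ND-42, the counterpart of NDUFA10, was at -0.05 with an implied SE of 0.31 in the authors' deposited table. ND-B16.6, ND-B14.7 and ND-19, counterparts of NDUFA13, NDUFA11 and NDUFA8, had values of -0.06, -0.06 and -0.07 in the authors' deposited table. ND-B14.5B, the counterpart of NDUFC2, was the 1 positive member of this group, at 0.03 in the authors' deposited table.

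The 10 accessory subunits of the distal membrane arm, which surround the outer proton channels, were split evenly between 5 positive and 5 negative values and had a median of 0.00. They held both ends of the range. ND-AGGG, the counterpart of NDUFB2, had the most negative value of all members. The authors' deposited table put its log2 fold change at -0.32 (implied SE 0.21, interval from -0.75 to 0.10), with an unadjusted p of 0.13 and 0.81 after adjustment. As a fold this is 0.80, with an interval from 0.60 to 1.07. ND-PDSW, the counterpart of NDUFB10, had the most positive value, which the authors' deposited table put at 0.11 (implied SE 0.37). ND-ASHI and ND-B18, counterparts of NDUFB8 and NDUFB7, followed at 0.05 and 0.04, before ND-SGDH and ND-B15 at 0.02 and 0.01, in the authors' deposited table. ND-B17, ND-B22 and ND-B12 had values of -0.14, -0.03 and -0.01 in the authors' deposited table.

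ND-MNLL, the counterpart of NDUFB1, was at -0.14 with an average log2 CPM of 6.58 in the authors' deposited table. These are also the values of another gene, CG45089, whose log2 fold change differed from that of ND-MNLL by 3.2e-09 and whose average log2 CPM was equal to the last digit printed here. In the Ensembl annotation 100% of the spliced bases of ND-MNLL lie in exons of CG45089 on the same strand, so the reads of the pair cannot be told apart. No other member shared its values with a second gene. Exons of another gene overlapped 18 of the 34 members, in 4 of the 18 on the same strand, and whether reads were counted by strand is not known here.

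The last 2 members stand apart by function. ND-ACP, listed as mtacp1, is the mitochondrial acyl carrier protein, which also serves fatty acid and lipoic acid synthesis. The authors' deposited table had it at -0.04 (implied SE 0.21), and its interval from -0.45 to 0.37 lay within a 1.5-fold change. ND-MLRQ is the counterpart of NDUFA4, which in mammals is assigned to complex IV. It was at -0.12 with an implied SE of 0.34 in the authors' deposited table.

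Taken by sign, 25 of 33 members (75.8%) were negative, beside 44.1% of all tested genes and 42.2% of the other tested genes in the same range of averages. The values behind these signs were small: 31 of 33 were smaller than 0.2 in size and 16 smaller than 0.1 on the log2 scale. Most values were negative in related lists too, with 8 of 9 tested genes of complex III, 8 of 9 of ubiquinone synthesis, 3 of 4 of complex II, 7 of 10 of complex IV and 9 of 13 of ATP synthase. The assembly factors of complex I had 5 of 9 and iron-sulphur cluster assembly 4 of 9 negative values. Signs of genes within 1 set of libraries are not independent of each other. Within the members' range of averages, short transcripts were more often negative. Among other genes in the range with a spliced length under 1200 nt, 54.4% were negative, with a median log2 fold change of -0.02, while among those of 2600 nt or more 31.3% were negative, with a median of 0.06. Of the tested members, 25 of 33 were shorter than 1200 nt and their median length was 807 nt, against 2396 nt for the other genes in the range. Of the members shorter than 1200 nt, 20 of 25 (80%) had a negative value. Of the longer ones 5 of 8 did, beside 49.4% of other genes between 1200 and 2600 nt. Lengths below 1200 nt were not matched. Under 600 nt 3 of 4 members and 60% of other genes were negative. From 600 to 800 nt these were 10 of 12 and 56.5%, and from 800 to 1200 nt 7 of 9 and 52.7%. These shares were not tested against each other.

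Precision also differed from that of other genes in the range. The implied SE of the members had a median of 0.34 and ran from 0.20 to 0.62, whereas the other tested genes in the range had a median of 0.22. A wide SE was not particular to complex I. The median was 0.40 in complex III, 0.34 in complex IV and 0.32 in ATP synthase. It was 0.27 in the assembly factors, 0.22 in ubiquinone synthesis, and 0.21 in both complex II and iron-sulphur cluster assembly. The interval lay within a 2-fold change for 27 of 33 members (81.8%) and for 94.6% of the other genes. This share was 66.7% in complex III, 69.2% in ATP synthase, 75% in complex II and 90% in complex IV. It was 88.9% in the assembly factors and 100% in both ubiquinone synthesis and iron-sulphur cluster assembly. Below 1200 nt the interval lay within a 2-fold change for 19 of 25 members (76%) and 88.1% of the other genes. ND-B12, the counterpart of NDUFB3 with a transcript of 525 nt, had the widest implied SE at 0.62, and its interval ran from -1.22 to 1.20. ND-B14.5A and ND-24 followed with 0.54 and 0.50. The narrowest were those of ND-20, ND-ACP and ND-75, at 0.20, 0.21 and 0.21. Shorter transcripts went with a wider SE: over the 33 members Spearman's rho of SE and length was -0.51, and over 4279 other genes in the range it was -0.19. These are correlations across genes that share libraries, and genes are not independent replicates. Among other genes shorter than 1200 nt the median SE was 0.26, and among the 25 members under that limit it was 0.39. Lengths below the limit were not matched. Under 600 nt the medians of other genes and members were 0.33 and 0.47. From 600 to 800 nt they were 0.31 and 0.40, and from 800 to 1200 nt 0.23 and 0.34. A wider SE limits what could be seen, since a larger change is then needed for a call. The smallest log2 fold change called among the other genes of the range was 0.62 in size. It was that of GstT1, whose implied SE of 0.198 was narrower than that of any member.

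**Figure D2:**
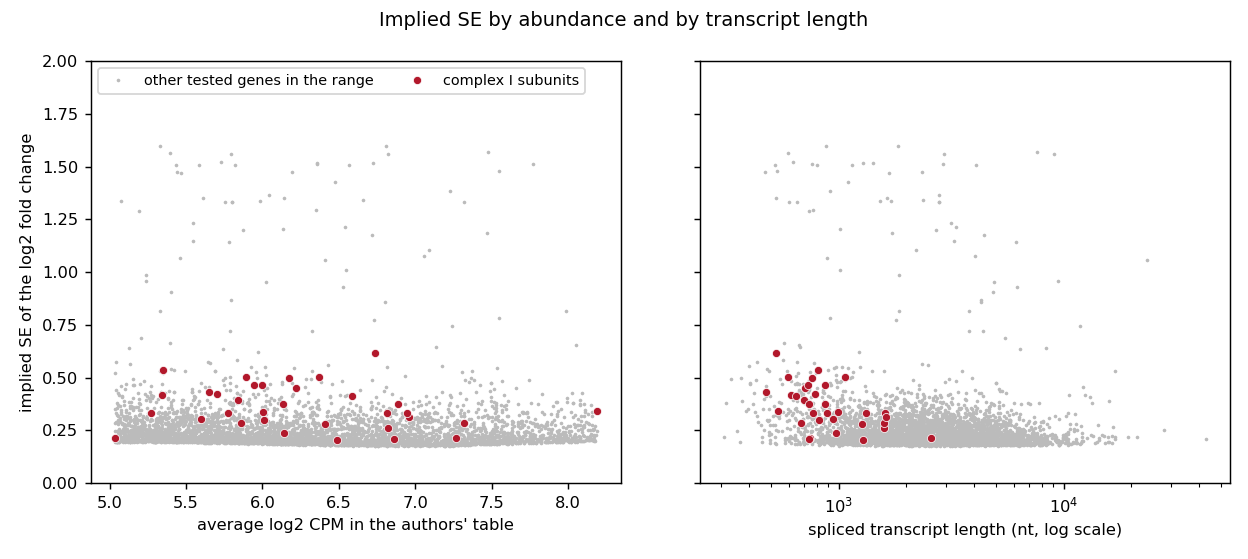
Implied SE of the log2 fold change against average log2 CPM (left) and against spliced transcript length (right, log scale). Red points are the 33 tested complex I subunits, with a median SE of 0.34, and grey points are 4279 other tested genes within their range of averages, which lie lower, with a median SE of 0.22 over that range.

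Intervals of 6 members reached past a 2-fold change: ND-24, ND-13A, ND-13B, ND-B14.5A, ND-MWFE and ND-B12. In all 6 the interval crossed the limit on the negative side, and for ND-B12 also on the positive side. For these genes the interval leaves room for a 2-fold change. An interval within the limit does not mean that a smaller change would have been called. ND-B14.5B, within the limit, had an implied SE of 0.50, wider than the 0.46 of ND-13A and of ND-MWFE. At the other end, the intervals of 5 members lay within a 1.5-fold change, among them ND-75, ND-30, ND-20 and ND-ACP.

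Levels of the subunits were compared per kilobase of spliced transcript, from the authors' average log2 CPM and lengths in the Ensembl annotation, which ran from 460 to 2571 nt. The described core subunits of the peripheral arm lay close together, from 5.90 for ND-75 to 6.30 for ND-23 in average log2 CPM per kb. Over the 33 tested members the median was 6.28, and the middle of the distribution spanned 6.05 to 6.66 from the lower to the upper quartile. ND-MLRQ was highest at 9.08, followed by ND-B12 at 7.67, ND-ACP at 7.29 and ND-MNLL at 7.21, the last shared with CG45089. ND-ASHI at 5.38 and ND-AGGG at 5.46 were lowest among the tested members, and ND-B8 was at -1.12. No error belongs to these levels, so neighbours in the order cannot be told apart. The libraries behind the averages are not stated. As the values of sna and slp2 show, they appear to include libraries outside the compared groups. These levels should therefore not be read as levels in the labelled oocytes alone.

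**Figure D3:**
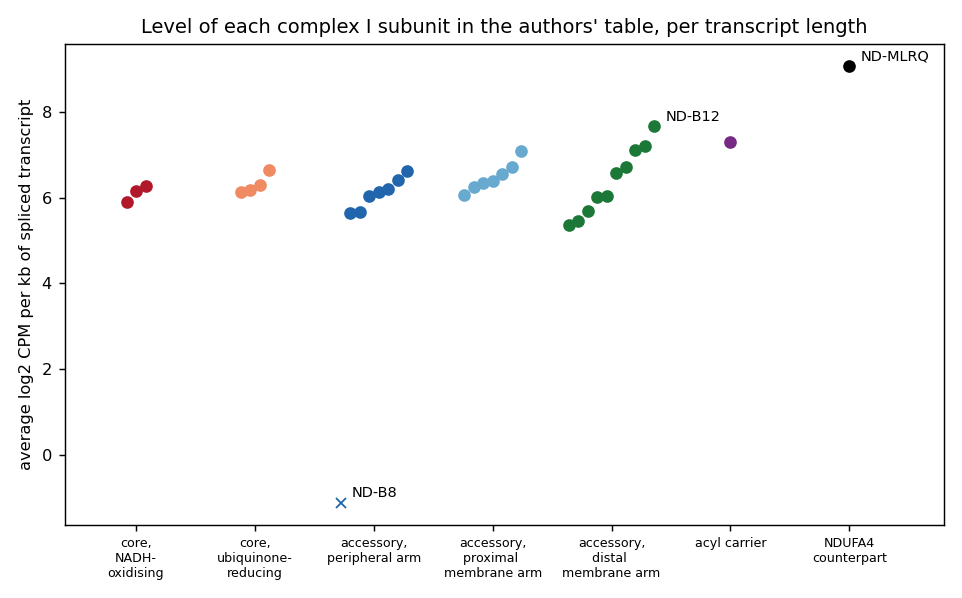
Average log2 CPM per kb of spliced transcript for each of the 34 subunits, grouped by place in the enzyme, with crosses for a gene without a likelihood ratio. Tested members lie between 5.38 and 9.08, with ND-MLRQ highest, and ND-B8 lies apart at -1.12.

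Related genes of the respiratory chain gave 1 call among 65 tested genes of 8 lists, beside the 5.1% called among all tested genes, and that call was an assembly factor of complex I. In the authors' deposited table CG3270, counterpart of the human assembly factor FOXRED1, stood at -1.31 on the log2 scale (implied SE 0.33, unadjusted p = 7.6e-05, adjusted p = 0.0028). The authors' deposited table gave CG3270 a low average log2 CPM of 0.66, and its exons overlap those of Mob4 on the opposite strand. The 8 other assembly factors were not called and had unadjusted p of 0.29 or more. CIA30, ECSIT and sicily, counterparts of NDUFAF1, ECSIT and NDUFAF6, had values of -0.01, 0.03 and 0.12 in the authors' deposited table. Nubpl, listed as CG3262 and known in humans for delivering iron-sulphur clusters to complex I, was at 0.00 with the highest average of the list, 6.23 in the authors' deposited table. The most negative of the uncalled factors was CG17726, the counterpart of NDUFAF7, at -0.26 in the authors' deposited table.

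Genes with paralogous copies of core subunits were at very low averages. ND-51L1 and ND-51L2 had average log2 CPM of -1.35 and -2.96 in the authors' deposited table. Their log2 fold changes were 0.02 and -0.28 (implied SE 0.95 and 1.37). ND-24L and ND-20L had a likelihood ratio of 0 and averages of -3.79 and -3.63 in the authors' deposited table. The 7 subunits encoded by mitochondrial DNA were looked up by name, were not found in the authors' deposited table and so were not analysed here.

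The other respiratory complexes and the supply of cofactors gave no call. Complex II, which feeds electrons from succinate to ubiquinone, had a median of -0.10 over 4 tested genes, with SdhA at 0.00 and SdhB at -0.21 in the authors' deposited table. Complex III had a median of -0.04 over 9 genes, complex IV -0.01 over 10 and ATP synthase -0.02 over 13. In complex IV, COX4L, listed as CG10396, was at 1.84 with an implied SE of 0.98 and an unadjusted p of 0.059 in the authors' deposited table, at an average log2 CPM of 0.03. Ubiquinone synthesis, which makes the electron acceptor of complex I, had a median of -0.11 over 9 genes, 8 of them negative. Coq8, listed as CG32649 and encoding a kinase-like protein of that pathway, was at -0.35 with an implied SE of 0.20 and an unadjusted p of 0.086 in the authors' deposited table. The assembly of iron-sulphur clusters had a median of 0.02 over 9 genes, with the ferredoxin Fdx2 at 0.16 and the scaffold IscU at 0.02 in the authors' deposited table. Differences between the medians of these lists and that of complex I, -0.07, were not tested.

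**Figure D4:**
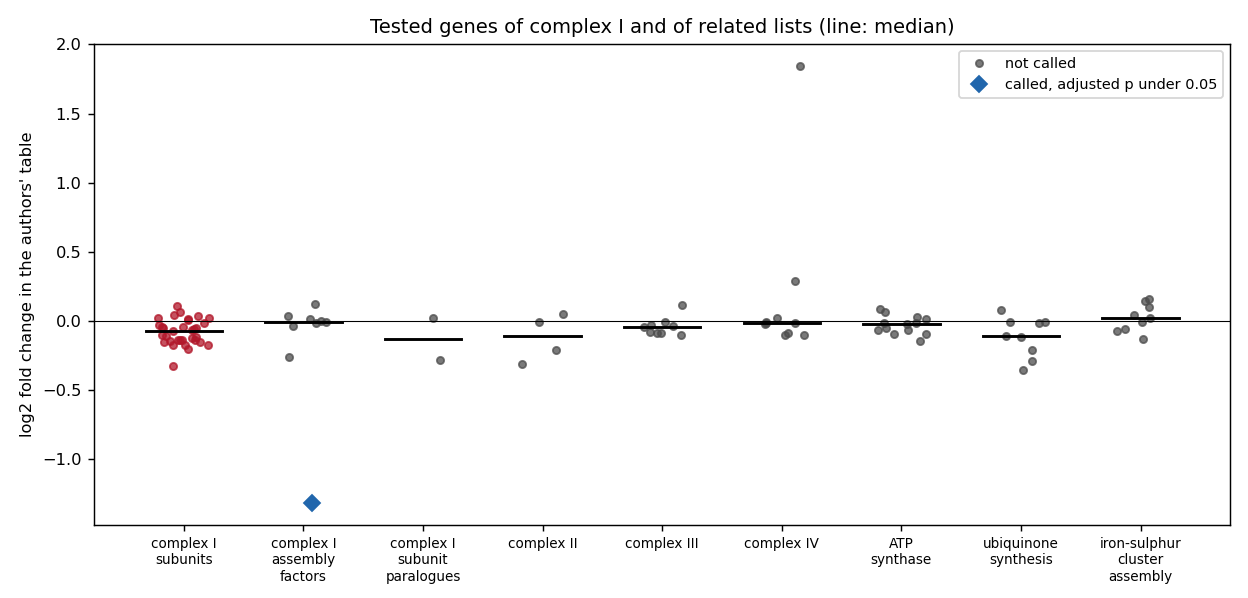
Log2 fold change in the authors' deposited table of the 33 tested complex I subunits (red) and of 65 tested genes in 8 related lists (grey), with a line at each median. The blue diamond is CG3270 at -1.31, the 1 called gene, and the highest grey point is COX4L at 1.84.

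Markers of the labelled material and of other tissues were read in the same table. All 8 germline and oocyte markers were listed, with average log2 CPM from 3.11 to 9.76, and none was called. Follicle cell markers were high, with averages from 7.95 to 12.31 for 9 genes and no call. All 5 midgut markers were called, with positive values that ran from 4.39 to 8.55 on the log2 scale, at averages from 1.57 to 3.93. Of 6 early zygotic markers, which the embryo transcribes, 4 were tested and 3 were called with positive values. In the authors' deposited table sisA stood at 2.33, odd at 2.27 and zen at 1.02, while sna and slp2 had a likelihood ratio of 0 and average log2 CPM of 5.70 and 5.86. Of 3 testis markers in the table, 2 were tested and 0 were called, and S-Lap1 had an unadjusted p of 0.28. All 6 muscle markers, from a tissue rich in mitochondria, had positive values, 0 were called and 1 had an unadjusted p under 0.05, at averages from -3.05 to 4.76. The part of RNA from other tissues or from embryos in the values of the members was not tested. InR, the receptor gene, was at 0.25 with an adjusted p of 1 in the authors' deposited table.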

How the data were processed

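RNA from 6 samples in 2 groups of 3 was compared by the authors, and 1 table of that comparison was used. Per the submitters' processing notes, FastQC, Bowtie and TopHat were used, without versions or roles. For the genome build, read counter and filters the answer is: not given in the sources used here. Per the labels, the RNA was polyA selected, while the protocol names a stranded total RNA kit. Per the file headers, the deposited columns hold the likelihood ratio as a score, its p-value before and after adjustment, the log2 fold change and the average log2 CPM. The deposited p-values differed from the chi-square tail of the score (1 degree of freedom) by at most 6.4e-15, and the adjusted values from a Benjamini-Hochberg adjustment over 14862 genes by at most 3.6e-15.

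The planned count test was not possible on a table of this kind, so the authors' adjusted p under 0.05 was the call. The implied SE is the size of the log2 fold change divided by the square root of the likelihood ratio, where that ratio exceeded 0.0001. It depends on the authors' model, since no replicate spread could be measured. Names were matched through the RefSeq gene table. Spliced lengths and exon overlaps are those of the canonical transcripts of Ensembl release 115 (BDGP6.54), used for lengths and overlaps only, since the authors' build is not known. The members and lists were chosen with earlier results of these data known. The text describes the members, apart from 1 that is counted but not reported here, and from each related list, called genes and those with the smallest p or the highest average, and a few others by their role, chosen after their values were seen. The lengths of 600, 800, 1200 and 2600 nt were also chosen after the data were seen. Calculations used numpy 2.4.6 and scipy 1.17.1 with pandas 2.3.3 in Python 3.11.15, and plots used matplotlib 3.10.9.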

Additional observations from a re-analysis of the deposited data

How the results depend on the processing

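The count of 0 called members was 0 under each of 5 alternatives. These were a threshold of 0.01 or 0.1, adjustment over genes with a likelihood ratio only, and adjustment without genes of average log2 CPM below 0 or below 3. None of these could have given a call. The smallest unadjusted p of a member in the authors' likelihood ratio test was 0.13, and adjustment cannot lower a p-value. The median log2 fold change of the members stayed between -0.11 and -0.06 under 7 alternatives, which included other averages, other centring and leaving out ND-MLRQ or members whose exons overlap another gene. The number of members with an interval within a 2-fold change was 27 of 33. It was 22 in the smaller set without the 6 members with a likelihood ratio under 0.01. Over all 33 it fell to 17 with a 99% interval and to 5 with a limit of 1.5-fold, as a wider interval or a narrower limit must give. The share of negative members was 75.8%, and between 75% and 87.9% under 3 alternatives chosen after seeing the data. The count of calls among the related lists was 1 under 4 of 5 alternatives chosen after seeing the data, and 0 when only genes with an average log2 CPM of 3 or more were adjusted, since CG3270 has a lower average. Leaving out a replicate, other count tests and a search for promoter motifs were planned and not run, because values per sample and promoter sequences were not used here. No paired analysis was possible because no values of single samples, and so no replicate numbers, are in the deposited table.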
